A study of Homo sapiens with 6 samples.

Results

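The proteasome is described here through the genes that encode its subunits, activators and assembly factors, in MDA-MB-231 cells carrying a control hairpin or 1 of 2 hairpins against S100A10. Members were taken by symbol, as every gene whose name begins with PSMA, PSMB, PSMC, PSMD, PSME, PSMF or PSMG followed by a digit. This gave 47 genes of 15669 with a symbol on the array, each read by 1 probe set. Of these, 37 form the constitutive group: 7 alpha and 7 beta subunits of the 20S core, 4 ATPases and 9 other subunits of the 19S cap, 3 chaperones of the cap and 4 of the core, the activators PSME3 and PSME4, and PSMF1. The immune group holds PSMB8, PSMB9, PSMB10 and PSME1, that is 4 of the 5 genes named for it, since PSME2 was not analysed here. PSMC4, PSMC5, PSMD7 and PSMD13 were not analysed here either. The thymic subunit PSMB11 and the testis subunit PSMA8 stand apart, as do 4 genes that only share the prefix: PSMA3-AS1, PSMB8-AS1, PSMC3IP and PSME3IP1.

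The proteasome degrades proteins tagged with ubiquitin. Its 20S core is a barrel of alpha rings, which gate the entrance, around beta rings, of whose subunits PSMB5, PSMB6 and PSMB7 cut the substrate, and the 19S cap recognises, unfolds and feeds in the tagged protein. In cells exposed to interferon, PSMB8, PSMB9 and PSMB10 take the places of PSMB5, PSMB6 and PSMB7 in newly built cores, and the PA28 activator made from PSME1 and PSME2 can dock on the barrel, which alters the peptides available to MHC class I. Assembly chaperones, among them PSMG1 to PSMG4, build the core stepwise.

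The cells are an established human line from a triple-negative breast cancer, kept in medium with serum and puromycin, and all 3 groups carried a lentiviral hairpin: shNCT as control, shS100A10_1 or shS100A10_5, with 2 arrays each. S100A10 intensity was 88860 and 92938 with shNCT, 1969 and 1545 with shS100A10_1, and 13565 and 9461 with shS100A10_5, so both hairpins lowered their target (limma adjusted p = 1.71e-06 and 0.000442), shS100A10_1 further than shS100A10_5 (limma adjusted p = 0.00102). Whether the 2 arrays of a group are separate cultures or repeats of one is not stated, so p-values here measure array-to-array spread, possibly technical only. The mesenchymal markers VIM, CD44, CAV1, AXL and ZEB1 lay between 12.7 and 16.7 on the log2 scale, above the upper quartile of all probe sets (10.7), while mean CDH1 (3.59) and FOXA1 (4.73) lay below the lower quartile (4.98). Other epithelial markers were not low: mean KRT8 (15.4) and KRT18 (13.7) lay above the upper quartile, EPCAM was at 10.3 and GATA3 at 6.89. On the first principal component over all probe sets, shS100A10_5 replicate 2 lay at 41.1 and replicate 1 at 18.7, and the remaining 4 ranged from -18.2 to -10.0. The main counts and medians, and the changes of many single genes, are therefore also given without replicate 2, that is from replicate 1 of shS100A10_5 alone. In total RNA from whole cultures, fewer cells of a kind and less RNA per cell cannot be told apart.

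With shS100A10_5, PSMG4, a chaperone of core assembly, fell 2.53-fold. The catalytic genes PSMB5, PSMB6 and PSMB7 lay below control on both arrays without passing the test. Among the immune genes, PSMB8 and PSMB9 overlapped control. PSMB10, whose signal was below the median probe set, lay below control on both arrays without passing (limma adjusted p = 0.0598). With shS100A10_1, no member passed the test. On limma's model over all 16965 probe sets with Benjamini-Hochberg adjustment and a threshold of 0.05, shS100A10_5 changed 1 of 47 members, PSMG4, which was lower, against a background of 3.18% of all probe sets called in either direction and 1.75% called lower. With shS100A10_1 the count was 0 against a background of 0.189% called in either direction, and 1 member, PSMB8-AS1, had an unadjusted p under 0.05, against a background of 8.44%. Shared controls tie these comparisons together, since both use the same shNCT arrays.

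**Figure D1:**
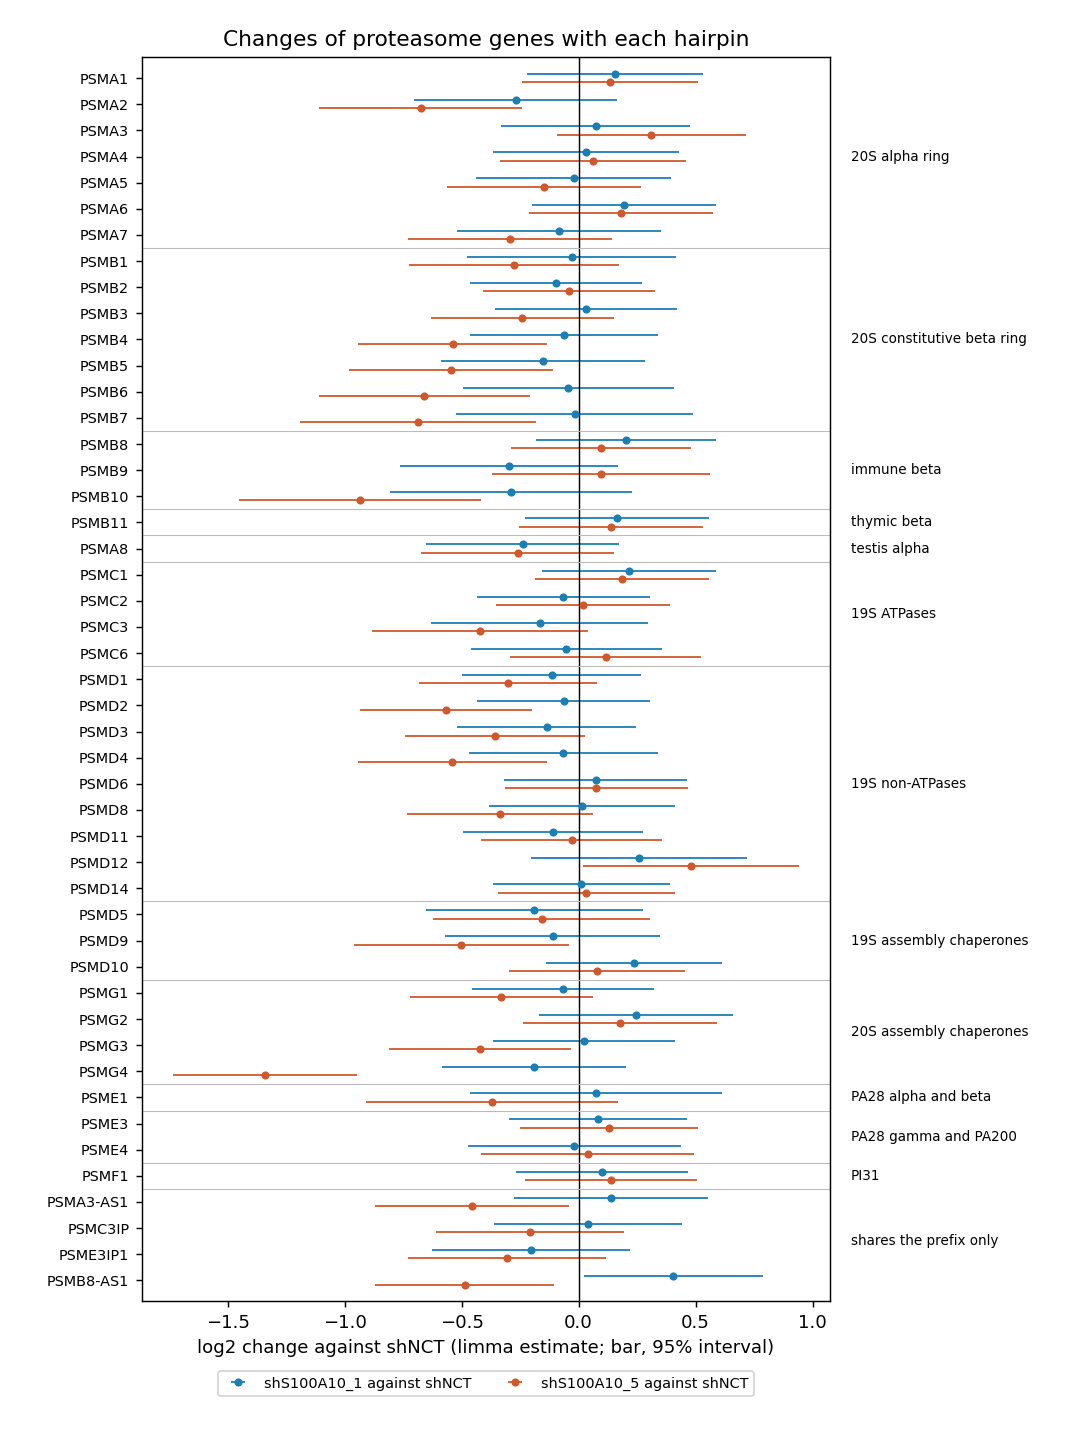
Estimated log2 change of each of the 47 genes against shNCT (horizontal axis) with its 95% interval, by role, for shS100A10_1 (blue) and shS100A10_5 (orange), from 2 arrays per group. The blue estimates lie between -0.30 and 0.40, and the orange ones reach from -1.34 for PSMG4 to 0.48 for PSMD12.

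Among members with shS100A10_5, 13 of 47 were lower at an unadjusted p under 0.05, against a background of 10.3% of all probe sets, and 1 was higher, against 10.7%. The hairpin arrays lay wholly below the control arrays for 24 members, against a background of 23.8%, and wholly above for 8, against 26.7%. The count of 13 depended on single arrays: it was 4 without shS100A10_5 replicate 2, 19 without replicate 1, and 8 without either shNCT array. The median change over the constitutive group was -0.16 with shS100A10_5 and -0.030 with shS100A10_1, beside medians of 0.025 and 0.0056 over all probe sets. Without shS100A10_5 replicate 2 the constitutive median was -0.085.

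The alpha ring, whose subunits form the gated outer face of the core, had no common direction. With shS100A10_5, 3 of its 7 genes had a negative change and 4 a positive one, with a median of 0.062, and with shS100A10_1 the median was 0.031. PSMA2 measured 12.42 and 12.59 on the log2 scale with shNCT, 12.32 and 12.15 with shS100A10_1, and 12.04 and 11.62 with shS100A10_5. Its levels did not overlap between control and either hairpin, with log2 changes of -0.27 (SE 0.20) and -0.67 (SE 0.20; limma adjusted p = 0.783 and 0.0876). PSMA3 lay at 12.52 and 12.22 in control cells and at 12.62 and 12.74 with shS100A10_5, a log2 change of 0.31 (SE 0.18; limma adjusted p = 0.364). PSMA6 had changes of 0.19 and 0.18 with the hairpins _1 and _5 (SE 0.18 each), and the other 4 alpha genes ranged from -0.29 for PSMA7 to 0.13 for PSMA1 with shS100A10_5. Without replicate 2 the change of PSMA7 was -0.051, that of PSMA5 was -0.014 and that of PSMA4 was 0.17.

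The constitutive beta ring was the role with the lowest median among those of more than 1 gene with shS100A10_5. All 7 genes had a negative change with it, against 46.7% of all probe sets, with a median of -0.54, and 4 of the 7 were lower at an unadjusted p under 0.05, against 10.3%, but none passed over all probe sets (lowest limma adjusted p = 0.103). The median was -0.34 without shS100A10_5 replicate 2 and -0.68 without replicate 1. With shS100A10_1 the ring's median was -0.043 and its members ranged from -0.15 to 0.032.

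PSMB5, the chymotrypsin-like catalytic subunit and the main target of proteasome inhibitor drugs, measured 12.99 and 13.17 on the log2 scale with shNCT, 13.03 and 12.82 with shS100A10_1, and 12.74 and 12.33 with shS100A10_5. The last 2 lay below all other arrays, and the log2 change with shS100A10_5 was -0.54 (SE 0.20, 95% interval -0.98 to -0.11; limma adjusted p = 0.146). PSMB6, the caspase-like subunit, measured 13.44 and 13.57, then 13.59 and 13.33, then 13.07 and 12.62 in the same order of groups. PSMB7, the trypsin-like subunit, measured 13.83 and 13.91, then 13.93 and 13.78, then 13.53 and 12.84. For PSMB6 and PSMB7 too the shS100A10_5 arrays lay below the other 4, with log2 changes of -0.66 (SE 0.20) and -0.69 (SE 0.23; limma adjusted p = 0.103 and 0.122). Without replicate 2 the changes of PSMB5, PSMB6 and PSMB7 with shS100A10_5 were -0.34, -0.43 and -0.34. With shS100A10_1 the 3 genes overlapped the controls, with changes of -0.15, -0.043 and -0.017. Of the structural beta subunits, PSMB4 had a change of -0.54 with shS100A10_5 (SE 0.18; limma adjusted p = 0.127), PSMB1 of -0.28, PSMB3 of -0.24 and PSMB2 of -0.041. Without replicate 2 those of PSMB1, PSMB3 and PSMB2 were -0.042, -0.13 and -0.083.

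**Figure D2:**
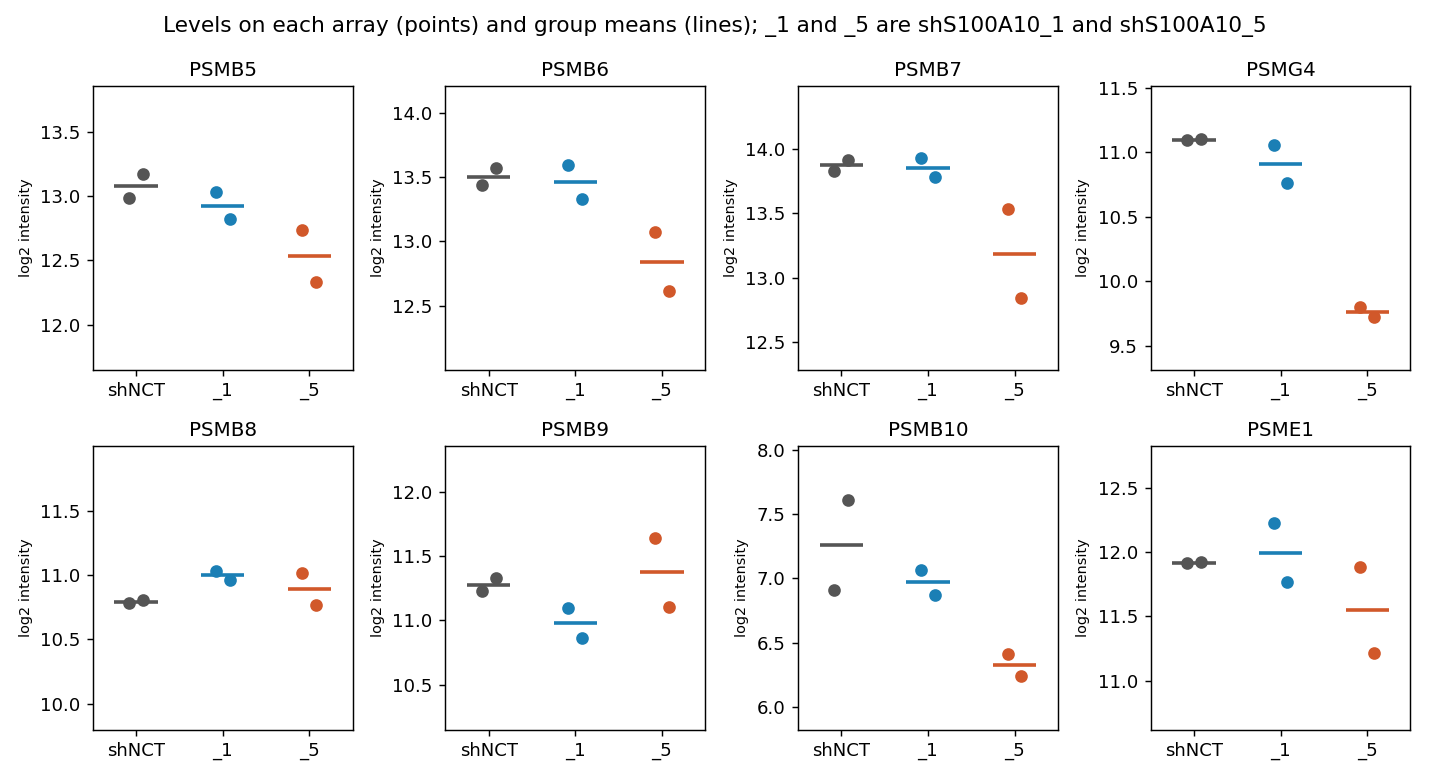
Log2 intensity on each array (points) and group means (lines) for the catalytic genes PSMB5, PSMB6 and PSMB7, the chaperone gene PSMG4 and the 4 immune genes, all axes spanning the same log2 range. The orange shS100A10_5 points lie below both other groups for the 3 catalytic genes, PSMG4 and PSMB10, and overlap the controls for PSMB8 and PSMB9.

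The immune group had no common direction with either hairpin, with 2 of its 4 genes negative and 2 positive each time. PSMB8, which replaces PSMB5, measured 10.78 and 10.81 on the log2 scale with shNCT, 11.03 and 10.96 with shS100A10_1, and 11.02 and 10.76 with shS100A10_5. It lay above control on both shS100A10_1 arrays, by 0.20 (SE 0.17; limma adjusted p = 0.829), and overlapped control with shS100A10_5, with a change of 0.096 (95% interval -0.29 to 0.48). PSMB9, which replaces PSMB6, measured 11.23 and 11.33, then 11.10 and 10.86, then 11.64 and 11.11. It was below control on both shS100A10_1 arrays (change -0.30, SE 0.21; limma adjusted p = 0.773), and its shS100A10_5 arrays lay on either side of the controls (change 0.095, 95% interval -0.37 to 0.56). PSMB10, which replaces PSMB7, measured 6.91 and 7.61, then 7.07 and 6.87, then 6.41 and 6.24. These levels lay below the median of probe set means (7.88), while those of the other immune genes lay above it. Both shS100A10_5 arrays were below the other 4, with a log2 change of -0.93 (SE 0.23, 1.91-fold; limma adjusted p = 0.0598), although its control arrays differed from each other by more than those of the other immune genes. PSME1, the alpha subunit of PA28, measured 11.91 and 11.92, then 12.22 and 11.76, then 11.88 and 11.21. Its change with shS100A10_5 was -0.37 (SE 0.24; limma adjusted p = 0.425), of which replicate 1 gave -0.038 and replicate 2 gave -0.70 against the control mean.

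The medians of the immune and constitutive groups were set side by side. With shS100A10_1 they were -0.11 and -0.030, a difference of -0.076, and with shS100A10_5 they were -0.14 and -0.16, a difference of 0.019. That difference ran from -0.16 to 0.18 with 1 array left out, was 0.25 for PSMB8, PSMB9 and PSMB10 alone, and was 0.52 when the immune group was set against PSMB5, PSMB6 and PSMB7 alone. These summaries have no test, and the difference between the medians varied between arrays of a group with an SD of 0.18. Each immune catalytic gene was also set against the constitutive gene whose place it takes, as the log2 change of one minus that of the other on every array relative to the control mean. PSMB8 over PSMB5 was 0.57 and 0.72 on the shS100A10_5 arrays, 0.29 and 0.42 with shS100A10_1, and 0.079 and -0.079 on the controls. PSMB9 over PSMB6 was 0.79 and 0.71 with shS100A10_5, but -0.27 and -0.24 with shS100A10_1, beside 0.017 and -0.017 on the controls. PSMB10 over PSMB7 was -0.51 and 0.012 with shS100A10_5 and -0.25 and -0.29 with shS100A10_1, beside -0.31 and 0.31 on the controls. With shS100A10_5 the balance of PSMB8 and PSMB9 against their counterparts was thus higher than on either control array. On replicate 1, PSMB5 and PSMB6 differed from the control mean by -0.34 and -0.43, and PSMB8 and PSMB9 by 0.22 and 0.36. On replicate 2, PSMB5 and PSMB6 differed by -0.75 and -0.89, and PSMB8 and PSMB9 by -0.031 and -0.17. The balance of PSMB10 was below both controls on replicate 1 and between them on replicate 2.

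The promoters of these genes were read from RefSeq (GRCh38.p14), which held windows of 300 bases, from 250 before to 50 after the start, for 37 of the 43 genes left after the prefix-only genes were put aside. They were searched on both strands for the interferon-stimulated response element, spelled as 2 copies of GAAA 2 bases apart, which binds interferon regulatory factors, and for the core of the antioxidant response element, spelled TGACNNNGC, which binds NRF1 and NRF2. The first was found in 3.57% of all 35116 windows, in 3 of the 5 windows of the immune group (PSMB8, PSMB10 and PSME1) and in 3 of the 38 windows of the constitutive group (PSMA4, PSMB4 and PSMG4). The 38 windows covered 31 constitutive genes. PSMB6 and PSMB7 had no window and were not searched. A further search, chosen after the matches were seen, took GC between the copies. These letters were read from the PSMB10 match, so PSMB10 holds them by construction. They stood in 0.0997% of all windows, and these included PSMB8, PSMB10, PSME1 and PSMG4. These 4 windows are shown because they hold the same element. Of their genes only PSMG4 passed the test, with shS100A10_5. Capitals mark the element, which in PSMB8 and PSME1 lies on the opposite strand. Each sequence runs 5′ to 3′ along the gene's own strand.
PSMB8 (chr6:32843998-32844297, minus strand): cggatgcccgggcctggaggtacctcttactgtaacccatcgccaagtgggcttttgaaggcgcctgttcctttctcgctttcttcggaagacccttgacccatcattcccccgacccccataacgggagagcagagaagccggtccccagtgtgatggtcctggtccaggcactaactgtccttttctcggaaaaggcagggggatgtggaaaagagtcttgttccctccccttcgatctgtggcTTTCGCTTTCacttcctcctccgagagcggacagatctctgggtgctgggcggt
PSMB10 (chr16:67936801-67937100, minus strand): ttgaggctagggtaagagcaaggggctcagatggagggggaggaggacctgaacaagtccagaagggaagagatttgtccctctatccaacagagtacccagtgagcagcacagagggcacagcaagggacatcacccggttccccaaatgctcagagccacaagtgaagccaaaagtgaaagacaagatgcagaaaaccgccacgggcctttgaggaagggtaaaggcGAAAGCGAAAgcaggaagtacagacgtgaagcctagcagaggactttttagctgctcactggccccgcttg
PSME1 (chr14:24135944-24136243, plus strand): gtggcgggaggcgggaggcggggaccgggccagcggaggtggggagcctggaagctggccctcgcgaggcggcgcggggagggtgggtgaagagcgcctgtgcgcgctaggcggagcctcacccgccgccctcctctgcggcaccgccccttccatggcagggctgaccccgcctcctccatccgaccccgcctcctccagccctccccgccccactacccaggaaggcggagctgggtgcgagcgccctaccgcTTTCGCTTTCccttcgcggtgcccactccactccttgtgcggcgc
PSMG4 (chr6:3258697-3258996, plus strand): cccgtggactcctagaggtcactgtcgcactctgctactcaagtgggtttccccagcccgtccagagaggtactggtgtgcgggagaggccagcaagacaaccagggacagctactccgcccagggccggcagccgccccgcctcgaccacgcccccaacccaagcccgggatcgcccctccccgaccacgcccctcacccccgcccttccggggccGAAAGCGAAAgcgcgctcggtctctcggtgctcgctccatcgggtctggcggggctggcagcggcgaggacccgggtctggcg
With shS100A10_5 the log2 changes of these 4 genes were 0.096, -0.93, -0.37 and -1.34 in the order shown, and with shS100A10_1 they were 0.20, -0.29, 0.076 and -0.19. The antioxidant core stood in 13.3% of all windows and in 2 of the 5 windows of the immune group (PSMB9 and PSME1) and 10 of the 38 of the constitutive group, among them PSMD12 (change 0.48 with shS100A10_5) and PSMD9 (-0.50). A match is a description of letters in these windows and no measure of binding.

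Subunits of the 19S cap are described as ATPases and others. The ATPases PSMC1, PSMC2, PSMC3 and PSMC6, which unfold the substrate, had a median change of 0.067 with shS100A10_5, with -0.025 on replicate 1 and 0.13 on replicate 2, and of -0.059 with shS100A10_1. PSMC1 lay above control on all 4 hairpin arrays (changes 0.22 and 0.19 with SE 0.17; limma adjusted p = 0.806 and 0.577), and PSMC3 had the lowest change of the 4 with shS100A10_5 (-0.42, SE 0.21; limma adjusted p = 0.280), or -0.19 without replicate 2. PSMC6 overlapped control with both hairpins (changes -0.053 and 0.12, the latter -0.050 without replicate 2), and PSMC2 had changes of -0.065 and 0.018.

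Of the 9 non-ATPase subunits, 6 had a negative change with shS100A10_5, against 46.7% of all probe sets, and 2 of these, PSMD2 and PSMD4, were lower at an unadjusted p under 0.05, against 10.3%. The median of the 9 was -0.30, and -0.17 without replicate 2. PSMD2, a scaffold at the base of the cap, measured 14.56 and 14.65 on the log2 scale with shNCT, 14.54 and 14.55 with shS100A10_1, and 14.09 and 13.99 with shS100A10_5, a change of -0.57 (SE 0.17; limma adjusted p = 0.0904). PSMD4, a ubiquitin receptor, measured 13.49 and 13.42, then 13.39 and 13.39, then 13.10 and 12.73, a change of -0.54 (SE 0.18; limma adjusted p = 0.127). Both lay below the other 4 arrays with shS100A10_5, and without replicate 2 the changes were -0.51 for PSMD2 and -0.36 for PSMD4. PSMD12, a subunit of the lid, went the other way, at 13.63 and 13.47 in control cells, 13.69 and 13.93 with shS100A10_1, and 13.78 and 14.28 with shS100A10_5. All 4 hairpin arrays were above both controls, by 0.26 and 0.48 (SE 0.21; limma adjusted p = 0.812 and 0.221), and it was the 1 member higher with shS100A10_5 at an unadjusted p under 0.05. Without replicate 2 its change with shS100A10_5 was 0.23. PSMD14, the enzyme of the lid that cuts off ubiquitin, had changes of 0.012 and 0.034, and PSMD11 of -0.11 and -0.030. PSMD1, PSMD3 and PSMD8 had changes of -0.30, -0.36 and -0.34 with shS100A10_5, with both arrays below the controls, and of -0.20, -0.23 and -0.17 without replicate 2. PSMD6 had a change of 0.076.

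The member with the largest change in either hairpin was a chaperone of the core. PSMG4, which pairs with PSMG3 to guide the early steps of the alpha ring, measured 11.10 and 11.10 on the log2 scale with shNCT, 11.06 and 10.76 with shS100A10_1, and 9.80 and 9.72 with shS100A10_5. The control level was 11.10 ± 0.0013 (SD, n = 2) and the shS100A10_5 level 9.76 ± 0.053 (SD, n = 2), and no other array came near the latter. The fall with shS100A10_5 was 1.34 on the log2 scale (log2 change -1.34, SE 0.18), 2.53-fold, with a limma adjusted p = 0.00865. With shS100A10_1 the change was -0.19 (SE 0.18; limma adjusted p = 0.848). Leaving out an array left the estimate with shS100A10_5 between -1.38 and -1.30, but the adjusted p rose to 0.0604 without shNCT replicate 1, 0.0859 without shNCT replicate 2 and 0.0993 without shS100A10_5 replicate 2. Over all 16 alternatives for this value the adjusted p lay between 0.000563 and 0.0993.

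Its partner PSMG3 measured 10.69 and 10.95 with shNCT, 10.88 and 10.81 with shS100A10_1, and 10.43 and 10.37 with shS100A10_5. The shS100A10_5 arrays were again below the other 4, by a change of -0.42 (SE 0.17; limma adjusted p = 0.204). PSMG1 and PSMG2, which act as the other pair, had changes of -0.33 and 0.18 with shS100A10_5, and PSMG2 lay above control on both shS100A10_1 arrays (change 0.25, SE 0.19; limma adjusted p = 0.798). Among the chaperones of the cap, PSMD9 had a change of -0.50 with shS100A10_5 (SE 0.21; limma adjusted p = 0.201), PSMD5 of -0.16 and PSMD10, known as gankyrin, of 0.079. Without replicate 2 these 3 were -0.24, -0.36 and 0.18, and PSMG1 and PSMG2 were at -0.19 and 0.28. PSMD10 was higher with shS100A10_1 on both arrays, by 0.24 (SE 0.17; limma adjusted p = 0.779).

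The remaining factors lay near control. PSME3, the nuclear PA28 gamma, had changes of 0.084 and 0.13 with shS100A10_1 and shS100A10_5, PSME4, the PA200 activator, of -0.018 and 0.039, and PSMF1, the regulator PI31, of 0.099 and 0.14. PSMA8 and PSMB11, which belong to testis and thymus, had mean control levels of 4.21 and 4.37 on the log2 scale, below the lower quartile of probe set means. Their changes ranged from -0.26 to 0.16 and are near the bottom of the measured range, and the table has no detection calls.

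**Figure D3:**
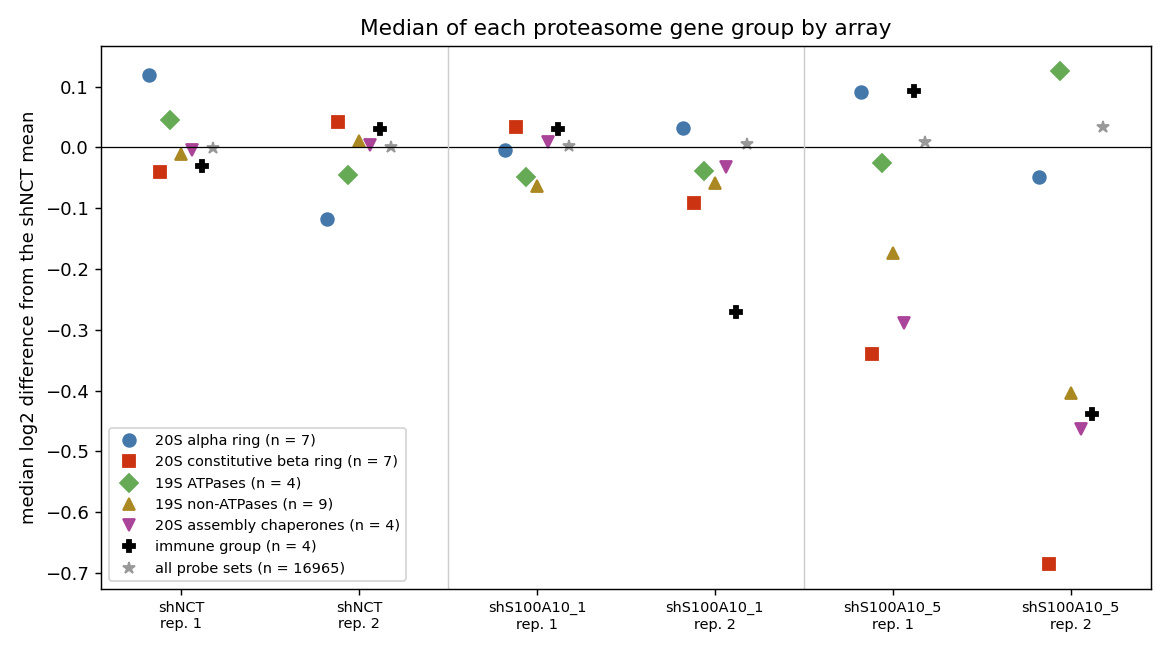
Median log2 difference from the shNCT mean over each gene group (vertical axis) on each of the 6 arrays; the control arrays mirror each other because their mean is the zero line. The constitutive beta ring lies at -0.34 and -0.68 on the shS100A10_5 arrays, while the median of all probe sets stays between -0.0012 and 0.034 on all 6 arrays.

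The direct comparison of the hairpins tests their difference. Between shS100A10_5 and shS100A10_1, 2 of 47 members passed, both lower with shS100A10_5, against a background of 1.48% called lower, and 10 were lower at an unadjusted p under 0.05, against 9.8%. That count of 10 was 3 and 7 without shS100A10_1 replicates 1 and 2, 19 without shS100A10_5 replicate 1 and 4 without shS100A10_5 replicate 2. The arrays of shS100A10_5 lay wholly below those of shS100A10_1 for 20 members, against 23.4%. PSMG4 was lower with shS100A10_5 by 2.22-fold (log2 difference -1.15, SE 0.18; limma adjusted p = 0.0129). Without shS100A10_1 replicate 1 its adjusted p was 0.0888, and without shS100A10_5 replicate 2 it was 0.110. PSMB7 (-0.67), PSMB10 (-0.65) and PSMB6 (-0.62) had the next differences among subunit genes (limma adjusted p = 0.143, 0.163 and 0.131), which were -0.32, -0.56 and -0.39 without shS100A10_5 replicate 2. PSMB9 had the largest positive difference, 0.39 (SE 0.21; limma adjusted p = 0.332). The constitutive median was -0.16 and the immune median -0.28, beside 0.016 over all probe sets.

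The second gene past the threshold was PSMB8-AS1, a non-coding RNA transcribed from the strand opposite to PSMB8, whose start lies beside it. It measured 7.29 and 7.09 on the log2 scale with shNCT, 7.64 and 7.55 with shS100A10_1, and 6.75 and 6.65 with shS100A10_5. The groups did not overlap: it was above control with shS100A10_1 (change 0.40, SE 0.17; limma adjusted p = 0.555), below control with shS100A10_5 (change -0.49; limma adjusted p = 0.140), and lower with shS100A10_5 than with shS100A10_1 by 1.86-fold (difference -0.89, SE 0.17; limma adjusted p = 0.0263). PSMB8 itself differed between the hairpins by -0.11 (SE 0.17). The call was lost without either shS100A10_1 array (limma adjusted p = 0.159 and 0.0954 without replicates 1 and 2) and without shS100A10_5 replicate 2 (0.129). The labels do not say whether the probes keep signals of the 2 strands apart. Of the other prefix-only genes, PSMA3-AS1 had a change of -0.46 with shS100A10_5 (SE 0.19; limma adjusted p = 0.196), and PSME3IP1 and PSMC3IP of -0.31 and -0.21, or -0.10 and -0.17 without replicate 2.

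The members differed in gene span, the distance from the start to the end of the gene in RefSeq, and their changes with shS100A10_5 varied with it. Over the 37 constitutive genes, Spearman's rho between change and span was 0.44 with shS100A10_5 and 0.16 with shS100A10_1, and over 15665 genes with a span it was 0.17 and -0.0043. Genes share arrays and are not independent, so no p is given. The 18 constitutive genes shorter than 18.2 kb had a median change of -0.39 with shS100A10_5, and the 19 of that length or more a median of 0.034. On replicate 1 alone these medians were -0.21 and -0.014, and on replicate 2 alone -0.52 and 0.074. All genes on the array cut at the same length had medians of -0.037 and 0.068. With shS100A10_5, 14 of the 18 shorter constitutive genes had a negative change, and 8 of the 19 longer ones. PSMB7 and PSMD9 were among the longer genes and low. PSMD10 and the immune genes PSMB8 and PSMB9 were short and overlapped control. The other immune genes, PSMB10 (2.3 kb, change -0.93) and PSME1 (2.8 kb, change -0.37), were shorter still. Both lay below control on both shS100A10_5 arrays. With a smooth trend on span removed from every array, the beta ring median was -0.47 and the constitutive median -0.18. The count of members lower at an unadjusted p under 0.05 was 13. That trend was fitted over all genes, where rho was weaker than among the constitutive genes (0.17 beside 0.44). Its removal therefore could not take away their own relation to span. The part of span in these changes was not tested.

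**Figure D4:**
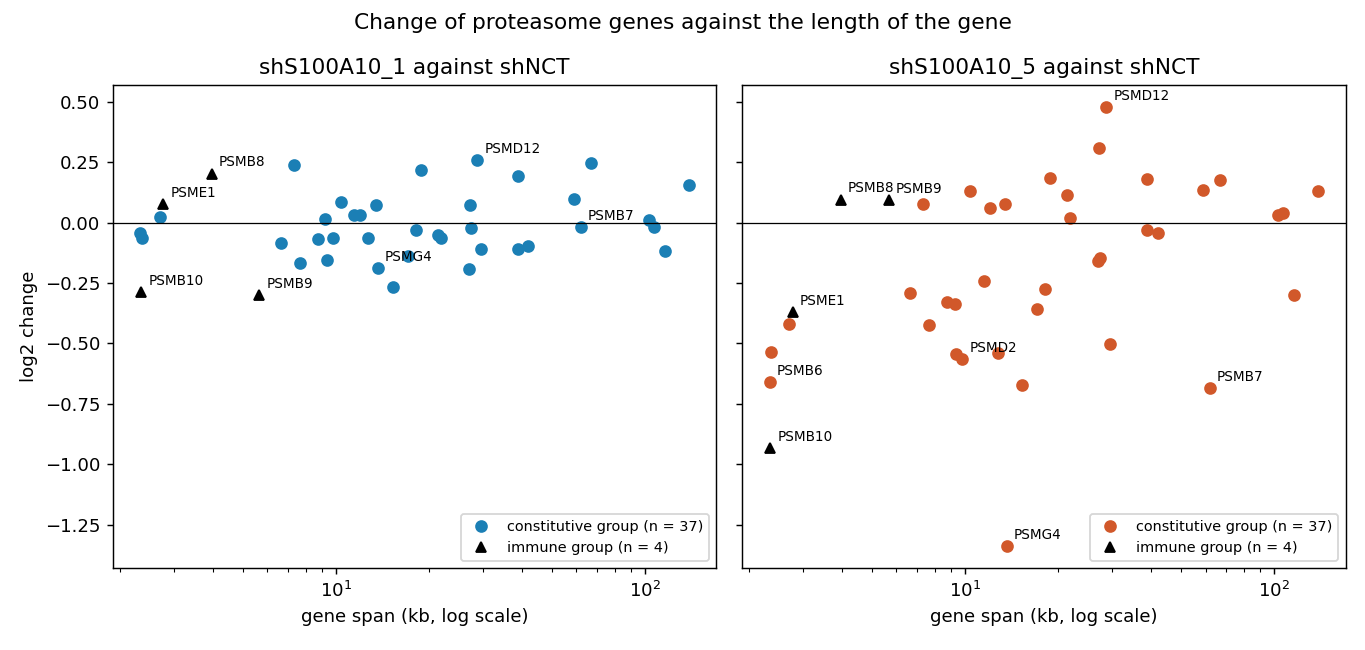
Log2 change against shNCT (vertical axis) by gene span in kb (log scale) for 37 constitutive genes (circles) and 4 immune genes (triangles), left with shS100A10_1 and right with shS100A10_5. On the right the genes below 18.2 kb lie lower, with a median of -0.39, and PSMG4 lies lowest at -1.34.

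Genes outside the family that act with the proteasome were read from separate lists. Of 12 measured partners and chaperones without a PSM symbol, none passed with shS100A10_1 or shS100A10_5, against backgrounds of 0.189% and 3.18%. At such shares few calls would fall to 12 genes. Their medians were -0.026 and 0.20. ZFAND2A, a stress-induced proteasome partner, differed from control by 0.50 and 0.67 (SE 0.18; limma adjusted p = 0.456 and 0.0738), with all 4 hairpin arrays above both controls. TXNL1, a thioredoxin bound to the cap, had a change of 0.48 with shS100A10_5 (limma adjusted p = 0.148), PAAF1, a cap chaperone, of -0.43 (0.189), and the deubiquitinase gene USP14 and FBXO7 of -0.27 and -0.25 with shS100A10_1 (0.761 and 0.759). Of 8 measured ubiquitin and shuttle genes, 1 passed with shS100A10_5 and was lower, against 1.75% of all probe sets: UBA1, the main enzyme that activates ubiquitin, was at 13.21 and 13.27 with shNCT, 13.14 and 13.21 with shS100A10_1, and 12.48 and 12.42 with shS100A10_5. It fell by 0.79 on the log2 scale with shS100A10_5 (log2 change -0.79, SE 0.16; limma adjusted p = 0.0357), and its change with shS100A10_1 was -0.067. The list's medians were -0.027 and -0.032. The shuttle genes RAD23B and UBQLN2 had changes of -0.27 and 0.31 with shS100A10_1, NPLOC4 of -0.20 and -0.12 with the hairpins _1 and _5, and UBB, a ubiquitin gene, of -0.28 with shS100A10_5 (lowest limma adjusted p = 0.422 among these).

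Regulators of proteasome genes gave no call with either hairpin, against 0.189% and 3.18% of all probe sets. Of 6 measured, which include NFE2L1 and NFE2L2 that encode NRF1 and NRF2, the medians were -0.073 and -0.053. By limma 0 had an unadjusted p under 0.05 with either hairpin. The background was 8.44% with shS100A10_1, and 10.7% higher and 10.3% lower with shS100A10_5. NFE2L2 lay below control on both shS100A10_5 arrays (change -0.32, SE 0.18; limma adjusted p = 0.350), and NGLY1, which processes NRF1, above it (0.32, SE 0.17; limma adjusted p = 0.321). The small MAF partners MAFG and MAFF had changes of 0.30 and -0.17 with shS100A10_1.

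Interferon-stimulated genes, to which the immune subunits belong, are given beside them. Of 29 measured, 23 had a positive change with shS100A10_1 and 22 with shS100A10_5, with medians of 0.27 and 0.28. Over all 16965 probe sets, 8647 and 9036 had a positive change. Single genes differed between the hairpins. With shS100A10_5 against shS100A10_1, 3 passed as higher (GBP1, GBP2 and XAF1) and 2 as lower (OASL and IFIT3). Of all probe sets, 243 and 251 did. OASL and IFIT2 rose with shS100A10_1, against a background of 0.1% of all probe sets called higher, and GBP2, XAF1 and OAS1 rose with shS100A10_5, against 1.43%. Calls outside the family, here and for UBA1 and HLA-E, were not followed with 1 array left out. The log2 changes were 2.50 for OASL and 2.04 for IFIT2 with shS100A10_1 (limma adjusted p = 0.000428 and 0.0224), and 1.54, 1.22 and 1.13 for GBP2, XAF1 and OAS1 with shS100A10_5 (limma adjusted p = 0.00863, 0.0134 and 0.0308). With shS100A10_5 both OASL arrays were below control (change -0.62; limma adjusted p = 0.0928), and differed between the hairpins by -3.12 (limma adjusted p = 0.000147). RIGI had a change of 1.07 with shS100A10_1 (limma adjusted p = 0.0821). Class I presentation genes had medians of 0.33 and 0.17 over 13 members. None passed the threshold against control, beside backgrounds of 0.189% and 3.18%. HLA-E, a non-classical class I gene, was above control with shS100A10_1 (0.40) and below it with shS100A10_5 (-0.61), and between the hairpins it was lower with shS100A10_5 by 1.02 (log2 difference -1.02; limma adjusted p = 0.0179). HLA-F had changes of 0.38 and 0.042. TAPBP, which loads peptides on class I, differed from control by 0.72 and 0.68 (SE 0.20; limma adjusted p = 0.304 and 0.0873). TAP1 and TAP2, the peptide transporter genes that lie next to PSMB8 and PSMB9 in the MHC region, had changes of 0.38 and 0.14 with shS100A10_1 and 0.45 and 0.24 with shS100A10_5 (SE 0.19 each). The 4 immune proteasome genes had lower medians than these lists, -0.11 and -0.14, a comparison with no test. Their median varied between arrays of a group with an SD of 0.25. It was 0.030 and -0.27 on the shS100A10_1 arrays, beside 0.25 and 0.28 for class I genes. On the shS100A10_5 arrays it was 0.092 and -0.44, beside 0.12 and 0.19. For PSMB8, PSMB9 and PSMB10 alone the medians were -0.29 with shS100A10_1 and 0.095 with shS100A10_5. Leukocytes also express immune subunits. Of their 5 markers 4 were measured, with summed intensities of 6451 to 6694 with shNCT, 7467 to 7947 with shS100A10_1 and 4491 to 5962 with shS100A10_5. CD68, which many other cells express, made up nearly all of that, and PTPRC, CD3E and CD14 lay between 5.11 and 6.53 on the log2 scale, below the median probe set (7.88). The titles name only the MDA-MB-231 line, so these intensities are given as a description and not as a share of leukocytes.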

How the data were processed

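Total RNA was turned into cDNA labelled with biotin for whole-transcript arrays, per the labels' protocols, and 6 arrays in 3 groups were grouped by their titles. The deposited table gives a linear intensity, already normalized, for each probe set on each array, made with Transcriptome Analysis Console, per the submitters' processing notes. No source used here names its version, background correction or normalization, and the table has no detection calls, so values near the bottom of the range are uncertain. Every deposited intensity ended at 5 decimals as log2 (largest deviation 7.13e-10), so it had been on a log2 scale.

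Log2 intensities were used without renormalizing. Group means over the 6 arrays were estimated by limma 3.58.1 in R 4.3.3 with 3 residual and 7.16 prior degrees of freedom, tests were two-sided, and the Benjamini-Hochberg adjustment ran over the 16965 probe sets at a threshold of 0.05. The fit was tested on simulated data. Symbols came from the platform annotation (15674 probe sets with 1 symbol, 1291 with none). Where a gene has several probe sets the brightest was used.

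Members and lists were chosen with earlier results of these data known. Named with values were PSMB5 to PSMB10 and PSME1, members past the threshold, the 4 largest changes each way per comparison, and 3 genes per other list and hairpin by smallest p; further members are named to complete their roles. Spans and promoters are from RefSeq GRCh38.p14; the array's own build is not named, so no probe coordinates are given. Alternatives were quantile normalization, median centring, a filter on dim probe sets, other variance priors, weighted arrays, a block on the replicate number, other samples or probe sets, a span correction, and leaving out each array. The 2 arrays per group limit the precision.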

Additional observations from a re-analysis of the deposited data

Results flagged for a closer look

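The changes of 2 genes differed between the hairpins by a test of the difference itself, which the direct contrast of shS100A10_5 with shS100A10_1 gives because the control cancels. For PSMG4 the change with shS100A10_5 minus that with shS100A10_1 was -1.15 on the log2 scale (limma adjusted p = 0.0129), and for PSMB8-AS1 it was -0.89 (limma adjusted p = 0.0263). All 4 values of shS100A10_5 for these genes lay below all values of the other groups.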

How the results depend on the processing

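With shS100A10_1 the count of members past the threshold was 0 under all 17 alternatives. With shS100A10_5 it was 1, where 539 of all probe sets were called. It became 2 without dim probe sets (952 called in all) and 9 when the prior variance followed intensity (1454 called in all). Calls over the whole array thus rose too. With that prior they went from 539 to 1454 of 16965 probe sets, and those of members from 1 to 9 of 47. At an adjusted p under 0.1 in the main fit the count of members was 4. Between the hairpins it was 2, with 494 called in all, and 5 with that prior, with 1144 called in all. Both counts moved when 1 array was left out. Those 9 were PSMG4, PSMB10, PSMB4, PSMB5, PSMB6, PSMB7, PSMA2, PSMD2 and PSMD4. The cause was not tested. Members lower at an unadjusted p under 0.05 with shS100A10_5, a count chosen after seeing the data, numbered 4 to 19 with 1 array left out and 11 to 18 otherwise.

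The constitutive median ran from -0.28 to -0.085 with shS100A10_5 and from -0.26 to -0.060 between the hairpins with 1 array left out, the immune median with shS100A10_5 from -0.44 to 0.092, and the beta ring median from -0.68 to -0.34. The immune minus constitutive difference with shS100A10_1 ran from -0.24 to 0.13, and was -0.26 with PSMB8, PSMB9 and PSMB10 alone. With shS100A10_5 it was 0.25 for those 3 alone and 0.52 against PSMB5, PSMB6 and PSMB7 alone, which also moved it to 0.34 between the hairpins.

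Of 861 values of the 18 named genes under the alternatives, 820 kept their direction and side of the threshold, 8 lost it, 12 gained it and 21 changed sign, all 21 on leaving out an array and none of a gene with an adjusted p below 0.605 in the full data. Their ranges with shS100A10_1 were -0.64 to 0.064 for PSMB10, -0.15 to 0.31 for PSME1, -0.17 to 0.088 for PSMB6, -0.092 to 0.057 for PSMB7, -0.077 to 0.22 for PSMA3 and -0.15 to 0.041 for PSMC6. With shS100A10_5 they were -0.031 to 0.22 for PSMB8, -0.17 to 0.36 for PSMB9, -0.023 to 0.18 for PSMD10 and -0.050 to 0.28 for PSMC6. Between the hairpins they were -0.23 to 0.019 for PSMB8, -0.16 to 0.12 for PSMA8, -0.17 to 0.037 for PSMG2, -0.066 to 0.0045 for PSMC1, -0.072 to 0.046 for PSMA6 and -0.030 to 0.47 for PSMD12.

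Replicate numbers do not pair the arrays in the labels. The replicate block left the counts at 0, 1 and 2 in the 3 comparisons and changed no call; differences between replicates 1 and 2 correlated across groups with r between -0.035 and 0.19 over all probe sets. A group of 1 array left by an omission is assumed to vary like the others. The mean of all probe sets of a gene gave the same values for the members, each of which has 1.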
